A study of Mus musculus with 8 samples.

Results

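The secretory pathway genes described here code for the machinery that moves new proteins into the endoplasmic reticulum (ER) and between the ER and the Golgi. They were taken by gene symbol alone: the Sec11, Sec13, Sec16, Sec22, Sec23, Sec24, Sec31, Sec61, Sec62 and Sec63 families, the Srp, Ssr, Cop and Tmed families, and Pdia3 to Pdia6. On the array, 108 of 45101 probe sets, for 53 of 18193 named genes, met this rule, and the rule reads no measured value. MC/9 is a murine mast cell line. RNA of its exosomes, small vesicles pelleted from the culture supernatant, and RNA of the cells that shed them were each measured on 4 arrays. The labels give no genotype change or treatment for either group, and both grew in the same medium, which held 10% fetal bovine serum and 10% of a rat T cell culture supplement, so the pellets could also hold RNA that did not come from MC/9. Supernatants were cleared at 500 g and 23000 g, passed through a 0.22 µm filter and pelleted by ultracentrifugation for 70 min. The labels call the 4 samples of a group biological replicates but name no separate cultures, and the p-values then measure the spread between these samples, which may be technical.

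A protein bound for the secretory route is recognised by its signal peptide while it is still being made. The signal recognition particle (SRP) brings the ribosome to the Sec61 channel of the ER membrane, signal peptidase removes the signal peptide, and disulfide isomerases help the chain to fold. COPII coats then bud vesicles from the ER, COPI coats return material from the Golgi to the ER, and the p24 (Tmed) proteins ride in both kinds of vesicle as cargo receptors. Mast cells make large amounts of secretory granule proteins, which enter the cell's export route through the same machinery.

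Nearly all of this machinery was measurable in the cells, and nearly none of it stood clear of the background in exosomes. A signal is called measurable here when it exceeded the detection floor of its array, the 95th percentile of 148 probe sets for receptors and structural genes not expected in these cells, such as olfactory receptors. The 4 exosome arrays had 8, 4, 5 and 2 of the 108 probe sets above the floor, in the order of the replicates that all lists of signals here keep, and the 4 cell arrays had 90 to 91. In exosomes this is 4.40 ± 2.31% of the probe sets (SD, n = 4), against the 5% of unexpressed probe sets that pass such a floor by construction. Of all probe sets on the array, 6.20 ± 1.82% passed in exosomes and 47.5 ± 2.18% in cells. The low share in exosomes was thus near that of all probe sets. Over all 4 exosome arrays, 96 of the 108 probe sets passed on none, 8 on 1, 2 on 2, 1 on 3 and 1 on all 4, while 1.49% of all probe sets passed on all 4. Of the 91 that could be tested, 81 passed on no exosome array, against 79.7% of all tested probe sets. On the cell arrays 87 of the 108 passed on all 4, where 40.1% of all probe sets did.

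The scaling of the arrays sets what can be said about low signals in exosomes. The deposited signals have a trimmed mean of 100 on every array, and on this scale the background-list probe sets reached a median of 68.6 ± 4.31 in exosomes, against 2.42 ± 0.459 in cells (SD, n = 4 per group). The floor was 278 ± 29.7 for exosomes and 13.2 ± 2.55 for cells. Hybridisation controls were 4.51 higher on the log2 scale on exosome arrays than on cell arrays, and poly-A spike-in controls 3.63 higher. A signal that lies between the floors of the groups is measurable on a cell array and not on an exosome array. Where a gene stayed under the floor on all exosome arrays, its difference is given as a bound, the cell signal over the higher of the exosome floor and the exosome signal, in geometric means. Fewer vesicles carrying a transcript, fewer copies per vesicle and a smaller share of the RNA cannot be told apart in these samples.

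Of the 53 genes, 49 could be tested, each through its brightest tested probe set, and 41 were lower in exosomes, 1 was higher and 7 did not pass (limma, Benjamini-Hochberg adjusted p under 0.05 over 20214 probe sets). Of all 9840 tested genes, 46.1% were lower and 15.1% were higher. The median log2 difference, exosomes minus cells, was -2.74 over the 49 genes and -1.15 over all tested genes. By probe set, 60 of 91 tested were lower and 7 higher, against 37.5% and 17.9% of all tested probe sets. All 49 genes were above the floor on every cell array. A probe set was tested only if it exceeded the floor on 3 arrays of a group, so this count follows largely from the filter. Entry through the cell arrays favours lower calls in advance, and taking the brightest probe set may add to this. The same filter and choice applied to all tested genes, and their part in the 41 lower calls was not tested. In exosomes, 42 of the 49 stayed under the floor on every array and 0 exceeded it on all 4. Of all tested genes, 77.5% stayed under it on every exosome array. For 34 genes a bound could be given, which ran from at least 1.10-fold to at least 8.0-fold lower in exosomes with a median of 2.78. A bound does not depend on the test, and that of Sec23ip (1.20-fold) belongs to a gene that did not pass. By these bounds 24 genes were at least 2-fold lower and 9 at least 5-fold lower. All bounds given here hold on the deposited scale alone. Scaled to the probe sets measurable on all 8 arrays, the median bound was 1.36, 13 genes were at least 2-fold lower and 10 of the 34 bounds dropped under 1, whereas scaled to the poly-A or hybridisation controls the medians were 34.3 and 63.1. Sec16b, Tmed2, Tmed6 and Tmed11 had no probe set bright enough to test.

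**Figure D1:**
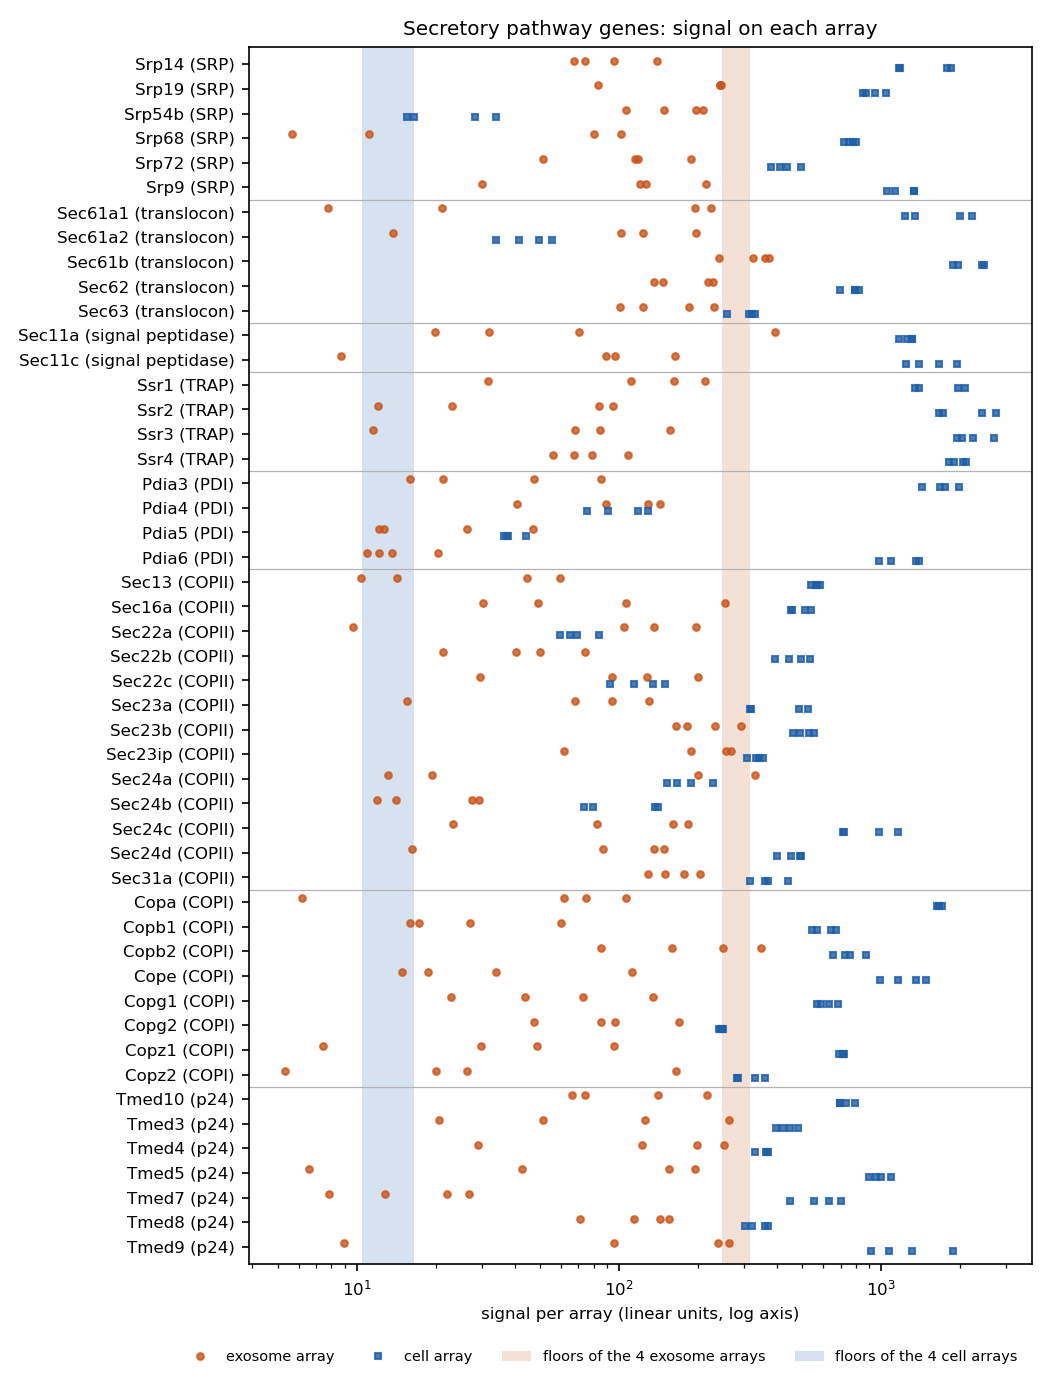
Signal of each of the 49 tested genes on each array, on a log axis in linear array units, with 1 point per array (circles, exosomes; squares, cells) and genes grouped by role. The shaded bands span the detection floors of the 4 exosome arrays (247 to 317) and the 4 cell arrays; nearly all exosome points lie left of the exosome floors, and Sec61b has 3 points at or beyond them.

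The genes brightest in cells were also taken alone, since a gene whose cell signal is itself under the exosome floor leaves no room to measure a fall. For 34 of the 49 genes the lowest cell signal was above 317, the highest floor of any exosome array. These are not the same 34 genes as those with a bound. All 34 were lower in exosomes, as were 96.4% of all 2695 genes that met this condition. Choosing genes by a high cell signal favours this direction in advance, so the count is no test of these genes. Of the 34, 28 stayed under the floor on all 4 exosome arrays, against 73.0% of all such genes, and 1, Sec61b, was above it on at least 3 exosome arrays, against 6.64% of all. The median log2 difference was -3.93 for the 34 genes and -3.11 for all 2695.

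Upstream sequence was compared because the unfolded protein response, which raises this machinery when ER folding is overloaded, acts through known DNA elements. For 45 of the 53 genes the RefSeq table (GRCm38.p6) gave the 250 bases before the gene's start, and the elements were searched on both strands. The UPRE letters TGACGTGG, bound by XBP1 and ATF6, stood in 3 of 45 (6.67%; Copb1, Sec16b and Sec24d), against 0.603% of 27025 genes. The core GACGTG, which lies inside the UPRE letters, stood in 13 of 45 (28.9%), against 5.87% of all. The longer ER stress element (ERSE, a CCAAT box and a CCACG box a fixed distance apart) stood in 1 of 45 (2.22%), Pdia6, against 0.130% of all, and the related ERSE-II in 0 of 45, against 0.037%. A match is a description of the letters and was not tied to any value here. The sequences shown are of the disulfide isomerase with the ER stress element (Pdia6) and of COPII and COPI subunits with the UPRE letters (Sec24d, Copb1). Sec61b, with none of these letters, is shown as the member gene most often above the exosome floor by its brightest tested probe set. All run 5′ to 3′ in the direction of the gene, with the UPRE or the ER stress element in capitals.
Pdia6, chr12:17266339-17266588, plus strand: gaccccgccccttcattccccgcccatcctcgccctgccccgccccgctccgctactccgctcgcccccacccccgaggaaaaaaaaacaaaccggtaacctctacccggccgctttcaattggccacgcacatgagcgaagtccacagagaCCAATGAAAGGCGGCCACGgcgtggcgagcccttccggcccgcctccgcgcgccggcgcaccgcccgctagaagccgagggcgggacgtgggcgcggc
Sec24d, chr3:123267246-123267495, plus strand: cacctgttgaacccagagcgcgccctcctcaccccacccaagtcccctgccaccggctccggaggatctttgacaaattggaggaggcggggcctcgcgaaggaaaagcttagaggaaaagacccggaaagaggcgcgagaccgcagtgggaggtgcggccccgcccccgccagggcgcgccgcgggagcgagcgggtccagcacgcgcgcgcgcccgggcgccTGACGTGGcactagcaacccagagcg
Copb1, chr7:114254681-114254930, minus strand, element on the opposite strand of the gene: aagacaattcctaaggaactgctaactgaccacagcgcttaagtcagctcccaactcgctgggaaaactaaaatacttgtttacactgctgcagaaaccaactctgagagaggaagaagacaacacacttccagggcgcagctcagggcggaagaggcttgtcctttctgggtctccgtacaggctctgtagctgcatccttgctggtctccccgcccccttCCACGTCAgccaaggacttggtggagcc
Sec61b, chr4:47474411-47474660, plus strand: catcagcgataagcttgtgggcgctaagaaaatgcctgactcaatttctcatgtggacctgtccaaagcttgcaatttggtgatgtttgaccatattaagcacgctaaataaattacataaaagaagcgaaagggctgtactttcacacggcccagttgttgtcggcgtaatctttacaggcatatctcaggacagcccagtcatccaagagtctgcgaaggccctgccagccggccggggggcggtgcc

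The signal recognition particle had 6 tested genes, of which 5 were lower in exosomes and 1, Srp54b, was higher. None of the 6 was above the floor on any exosome array, and all 6 were above it on every cell array. Srp14, which with Srp9 forms the Alu domain that pauses translation, had signals of 96.1, 74.5, 67.4 and 140.0 on exosome arrays and 1166, 1178, 1852 and 1782 on cell arrays. The groups were far apart, and Srp14 was at least 5.27-fold lower in exosomes (adjusted p = 6.51e-06). Srp9 had 30.1, 127, 215 and 121 in exosomes and 1055, 1126, 1337 and 1337 in cells, at least 4.36-fold lower (adjusted p = 0.000182). Srp19, the subunit needed to assemble Srp54 on the SRP RNA, had 244, 244, 83.1 and 242 in exosomes and 853, 872, 1047 and 948 in cells. It was at least 3.35-fold lower (adjusted p = 0.000483), with exosome replicate 3 well under the other exosome arrays, all 4 of them under their floors. Srp68 and Srp72, which bind the SRP RNA as a pair, were at least 2.75-fold and at least 1.55-fold lower, with adjusted p of 0.000376 and 0.00181.

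Srp54b, a copy of the GTPase subunit that binds the signal peptide, ran the other way in the deposited values. It had 148, 106, 197 and 210.1 on exosome arrays and 33.8, 28.3, 16.6 and 15.5 on cell arrays, with no overlap, a log2 difference of 2.63 (SE 0.44, adjusted p = 0.000494). No exosome array exceeded its floor for it, so its exosome signals lie within the range of unexpressed probe sets, and under scaling to the hybridisation or poly-A controls its difference turned to -1.56 and -0.70. The mouse genes Srp54a, Srp54b and Srp54c are near-identical copies, and the other probe sets for them name several genes and were not used here.

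Of the 5 tested translocon genes, 4 were lower in exosomes and Sec61a2 did not pass. Among the tested member genes, each by its brightest tested probe set, Sec61b was most often above the exosome floor, on 3 of the 4 exosome arrays. A further Tmed5 probe set, described below, exceeded it on all 4. Sec61b codes for the small tail-anchored subunit of the Sec61 channel. Its signals were 374, 325, 360.2 and 240.4 on exosome arrays, where replicate 4 was under its floor, and 1961, 1876, 2429.8 and 2464 on cell arrays. It averaged 325 ± 60.0 in exosomes, against 2182 ± 307 in cells (SD, n = 4 each), a log2 difference of -2.74 (SE 0.26, adjusted p = 1.32e-05). The difference was -2.45 within hybridisation batch 1 and -3.04 within batch 2, each with 2 arrays of a group. Every exosome array lay under every cell array, so Sec61b was lower in exosomes, where it was measurable on 3 of the 4 arrays. None of its exosome signals exceeded a floor set at the 99th percentile. The difference was smaller under quantile normalization, at -1.15, and under scaling to the probe sets measurable on all 8 arrays, at -1.72.

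Sec61a1, the pore-forming subunit, had 196, 225, 7.74 and 21.1 in exosomes and 1345, 1237, 2224 and 2004 in cells. All 4 exosome signals were under their floors, with batch 2 far under batch 1. By this probe set, its brightest, Sec61a1 was at least 5.96-fold lower in exosomes (adjusted p = 0.000841). Of its 6 tested probe sets, 3 were lower and 3 did not pass. Probe sets 1434986_a_at and 1448242_at were at least 1.43-fold and at least 1.93-fold lower. Those that did not pass had differences of -0.47, -0.66 and 0.96. Its paralog Sec61a2 was dim in cells, and its signals overlapped between 109 ± 75.4 in exosomes and 45.2 ± 9.41 in cells, a log2 difference of 0.78 (SE 0.69, adjusted p = 0.36) that did not pass. Sec62 and Sec63, membrane proteins that work with the channel in post-translational import, were at least 2.80-fold and at least 1.10-fold lower, with adjusted p of 0.000147 and 0.0322. The Sec63 call was lost within each batch, with the replicate number as a block and when some single arrays were left out, and its sign turned under scaling to the probe sets measurable on all 8 arrays.

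Both catalytic subunits of signal peptidase, Sec11a and Sec11c, were lower in exosomes. Sec11a had 394, 19.9, 70.4 and 31.8 on exosome arrays and 1249.7, 1168, 1306 and 1314 on cell arrays, with exosome replicate 1 alone above its floor. The log2 difference was -4.15 (SE 0.72, adjusted p = 0.000664), and with exosome signals under the floor raised to it the fall was 2.01 on the log2 scale. Sec11c had 89.4, 163, 8.67 and 96.4 in exosomes and 1393, 1247, 1662 and 1949.8 in cells, at least 5.56-fold lower (adjusted p = 0.000245).

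The 4 Ssr genes, subunits of the translocon-associated protein (TRAP) complex that sits beside the channel, were all lower in exosomes, and none exceeded its floor in exosomes. Their bounds ran from at least 6.01-fold to at least 8.0-fold lower, and that of Ssr3 was the highest of the 34. Ssr3 had 156, 84.95, 68.1 and 11.5 in exosomes and 1949, 2042, 2249 and 2689 in cells, at least 8.0-fold lower (adjusted p = 4.90e-05). Ssr2 had 12.1, 95.1, 23.1 and 84.1 in exosomes and 1715, 1661, 2752 and 2429 in cells, at least 7.54-fold lower (adjusted p = 2.01e-05). Ssr4 had 67.2, 108, 56.2 and 78.9 in exosomes and 2101, 1813, 1899 and 2056 in cells, at least 7.09-fold lower (adjusted p = 1.60e-06). In each of the 3, every exosome signal lay far under every cell signal. Ssr1 was at least 6.01-fold lower (adjusted p = 0.000102). All 4 calls held under each of the 6 other scalings tried.

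Among the disulfide isomerases, Pdia3 and Pdia6 were lower in exosomes and Pdia4 and Pdia5 did not pass. Pdia6, which also regulates the ER stress sensor IRE1, had 20.4, 13.6, 12.1 and 10.9 on exosome arrays and 983, 1088, 1389.8 and 1357 on cell arrays, at least 4.30-fold lower in exosomes (adjusted p = 9.78e-07). Its exosome signals were all far under their floors, so no fold beyond this bound can be read. Pdia3 (ERp57), which works with calnexin and calreticulin on glycoproteins, had 15.9, 85.1, 21.3 and 47.5 in exosomes and 1429, 1678, 1752 and 1985 in cells, at least 6.13-fold lower (adjusted p = 6.83e-06). A dimmer Pdia3 probe set, 1445330_at, had 181, 293, 299 and 248 in exosomes and 1.74, 13.8, 18.8 and 16.5 in cells, was above the floor on 2 arrays of each group and so was not tested. Pdia4 averaged 101 ± 46.0 in exosomes and 103 ± 24.5 in cells, and Pdia5 24.5 ± 16.3 and 38.9 ± 3.62, all exosome signals being under the floors. Their differences of -0.14 (SE 0.46) and -0.75 (SE 0.49) cannot show whether they differ, since cell signals of this size lie under the exosome floor.

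**Figure D2:**
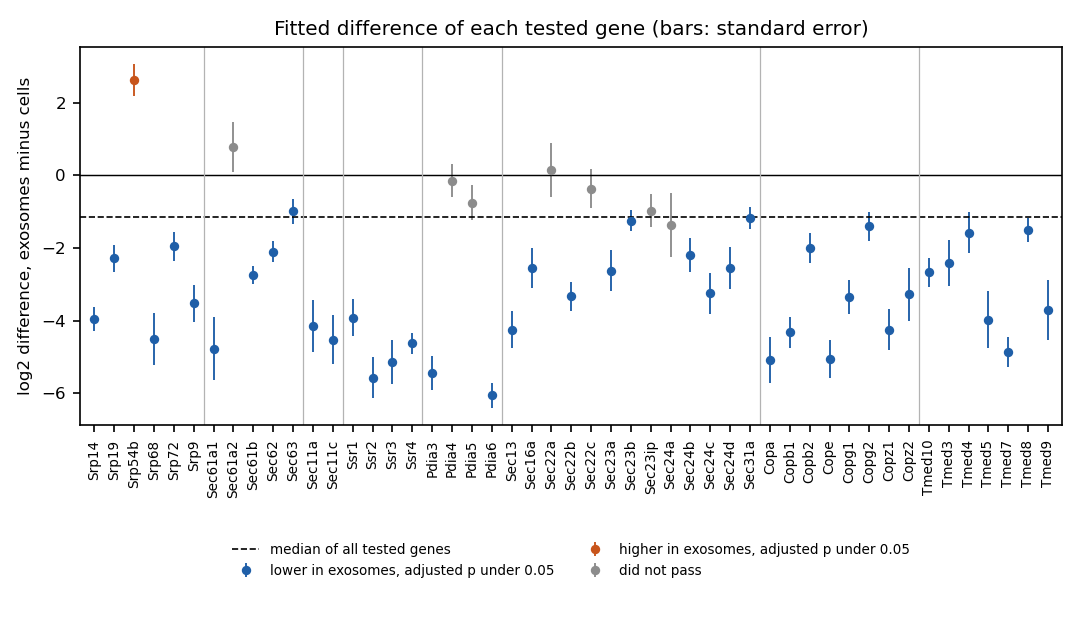
Fitted log2 difference, exosomes minus cells, of each of the 49 tested genes with its standard error, in the order SRP, translocon, signal peptidase, TRAP, disulfide isomerases, COPII, COPI and p24. Of them 41 lie below 0 and passed, Srp54b lies above (turning under scaling to the control probe sets) and 7 did not pass; the dashed line is the median of all tested genes, -1.15. Most exosome signals lie under the floor, so the sizes have no order.

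The COPII group was formed by symbol and holds, besides coat subunits, the Sec22 genes, Sec16a and Sec23ip, which are not coat subunits. Of its 13 tested genes, 9 were lower in exosomes, and Sec22a, Sec22c, Sec23ip and Sec24a did not pass. The median log2 difference was -2.19, and no test compared the roles with each other. Sec24b, counted among the lower genes, averaged 107.8 ± 36.0 in cells, under all exosome floors, where a fall cannot be measured. With low signals raised to the floor it was called higher. Sec13, which with Sec31 forms the outer cage, had 10.4, 44.8, 14.2 and 59.7 on exosome arrays and 542, 569, 585 and 566 on cell arrays, at least 2.04-fold lower (adjusted p = 5.44e-05). Sec24c, a cargo-binding subunit, had 161, 183, 82.5 and 23.3 in exosomes and 724, 715, 1157 and 985 in cells, at least 3.16-fold lower (adjusted p = 0.000618). In both genes the groups lay well apart.

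Of the COPII genes, 3 had 1 exosome array above its floor. Sec16a, which organises ER exit sites, had 253, 49.0, 30.4 and 106 in exosomes and 457, 453, 540.4 and 514 in cells, with a log2 difference of -2.54 (SE 0.56, adjusted p = 0.00274). Its call was lost within batch 1, as were those of Sec23a and Sec24d. Sec23b, a subunit of the inner coat that stimulates the Sar1 GTPase, had 291, 232, 182 and 165 in exosomes and 554, 531, 492 and 461 in cells, a difference of -1.24 (SE 0.29, adjusted p = 0.00427). With exosome signals under the floor raised to it, the falls were 0.81 for Sec16a and 0.82 for Sec23b on the log2 scale. The Sec23b call was lost under quantile normalization and under scaling to the probe sets measurable on all 8 arrays. Sec24a had 19.3, 13.1, 331 and 200.2 in exosomes and 152, 167, 189 and 228 in cells, with 2 exosome arrays far under the cell arrays and 2 near or above them. Its difference of -1.36 (SE 0.88, adjusted p = 0.211) did not pass, and its cell signals all lay under the exosome floors, where a fall cannot be measured.

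All 8 COPI coat genes that the symbol rule takes were lower in exosomes. Their bounds ran from at least 1.13-fold to at least 6.02-fold for the 6 that allowed one. Copg2 (adjusted p = 0.0127) averaged 245 ± 3.02 in cells, under the mean exosome floor, and lost its call within each batch, and Copz2 lost it within batch 1. Copa, the alpha subunit that reads retrieval signals on cargo, had 74.9, 106, 6.20 and 61.9 on exosome arrays and 1709.7, 1634, 1661 and 1667 on cell arrays, at least 6.02-fold lower (adjusted p = 7.84e-05). Cope, the epsilon subunit, had 33.8, 18.6, 112 and 14.9 in exosomes and 1157, 991, 1479 and 1360.2 in cells, at least 4.45-fold lower (adjusted p = 2.44e-05). Cell arrays were close together for Copa, whereas its exosome signals all lay in the background range. Copb2, which binds retrieval signals beside Copa, had 249.8, 159, 349 and 85.1 in exosomes and 658, 727, 761 and 876 in cells, with exosome replicates 1 and 3 above their floors. By this probe set, its brightest, the log2 difference of -1.99 (SE 0.41, adjusted p = 0.00202) lost its call under quantile normalization and under scaling to the probe sets measurable on all 8 arrays. By probe set 1452102_at, Copb2 had 25.0, 26.2, 6.87 and 10.6 in exosomes, all under their floors. That probe set had 666, 672, 498 and 533 in cells and was at least 2.12-fold lower in exosomes (adjusted p = 8.41e-06).

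All 7 tested p24 genes were lower in exosomes, and 6 of the 7 stayed under the floor on all exosome arrays. The call of Tmed4 (adjusted p = 0.0361) was lost within each batch and without exosome replicate 4 or any 1 of the cell arrays, and that of Tmed9 within batch 1. Tmed10 (p24 delta), which cycles between ER and Golgi as a dimer partner of other p24 proteins, had 74.4, 141, 217 and 66.3 on exosome arrays and 793, 694, 694 and 736 on cell arrays, at least 2.63-fold lower (adjusted p = 0.000231). Tmed9, its close partner, had 95.5, 262, 8.93 and 239 in exosomes and 911, 1074, 1313 and 1878 in cells by its brightest probe set, at least 4.5-fold lower (adjusted p = 0.0029). By probe set 1448268_at, Tmed9 had 191, 191, 138 and 427 in exosomes and 464, 562, 579 and 693 in cells, with exosome replicate 4 above its floor and a difference of -1.38 (SE 0.37, adjusted p = 0.00881). The 2 Tmed9 probe sets gave the same direction. Tmed3 had 262, 125, 51.5 and 20.7 in exosomes and 481, 396, 422 and 449 in cells, with exosome replicate 1 above its floor, a log2 difference of -2.41 (SE 0.63, adjusted p = 0.00753) whose call was lost within batch 1. With exosome signals under the floor raised to it, the Tmed3 fall was 0.63 on the log2 scale.

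Tmed5, a p24 protein of the early Golgi, had probe sets that went opposite ways. Probe set 1424574_at had 42.6, 6.56, 195 and 155 on exosome arrays and 995, 958, 900.3 and 1093 on cell arrays, at least 3.55-fold lower in exosomes (adjusted p = 0.00143). Probe set 1445343_at, in contrast, was the only one of the 108 above the floor on every exosome array, with 510.5, 493, 417 and 399, while its cell signals of 1.19, 2.12, 0.691 and 8.65 were under the floor on every cell array. On the deposited scale its exosome signal exceeded that of cells at least 34.7-fold (adjusted p = 3.28e-06). It was higher under each of the 6 other scalings, but the bound was 2.81-fold under scaling to the poly-A controls and 1.53-fold under scaling to the hybridisation controls. Of all probe sets, 0.271% (122) exceeded the floor on every exosome array and on no cell array. Probe sets 1424573_at and 1431789_s_at were lower, with -2.75 (SE 0.65, adjusted p = 0.00438) and -1.54 (SE 0.53, adjusted p = 0.0288), the second of these turning to 0.80 when low signals were raised to the floor. Which part of the gene each probe set reads is not given in the sources used here, so the level of Tmed5 RNA in exosomes cannot be read from probe set 1445343_at alone.

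**Figure D3:**
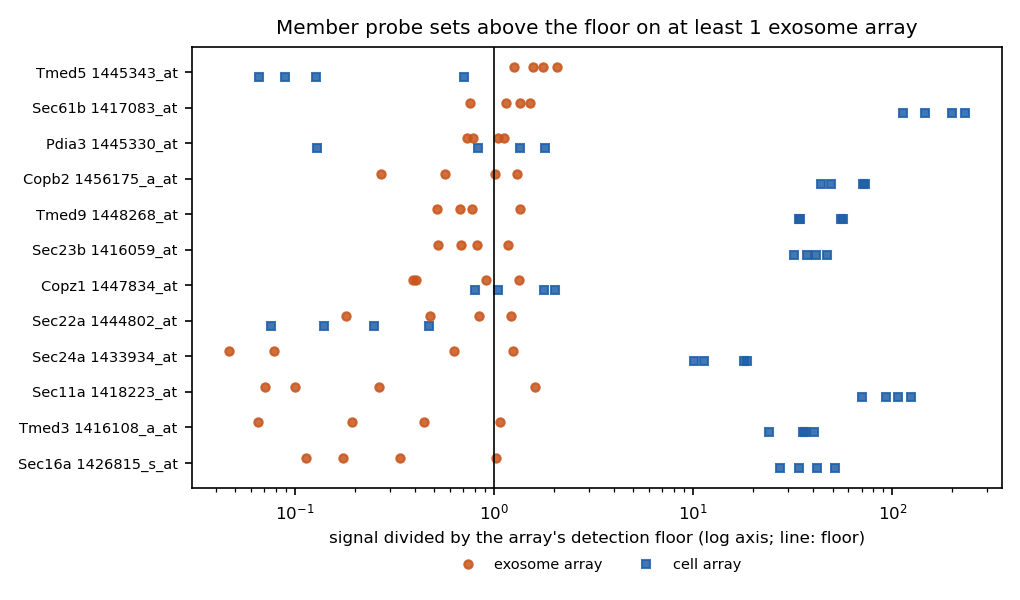
Signal divided by the detection floor of the same array, on a log axis, for the 12 member probe sets above the floor on at least 1 exosome array (circles, exosomes; squares, cells). Tmed5 1445343_at has all 4 exosome points right of the line and all cell points left of it, Sec61b has 3 exosome points right of the line, and the others have 1 or 2.

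Of 23 genes with several tested probe sets, 7 were lower by every probe set and 5 had calls in opposite directions, namely Copz1, Sec11c, Sec62, Ssr4 and Tmed5, while 14.4% of all 4580 such genes did. In each of the other 4, the probe set called higher was dim in cells. Copz1, the zeta subunit of COPI, was at least 2.57-fold lower by probe set 1451825_a_at (adjusted p = 0.000132). By probe set 1447834_at it had 225, 375, 107 and 124 in exosomes and 23.9, 13.3, 21.1 and 12.9 in cells, a difference of 3.14 (SE 0.50, adjusted p = 0.00036), with exosome replicate 2 alone above its floor. Sec62 was at least 3.02-fold lower by probe set 1454697_at (adjusted p = 0.00175), and by probe set 1444811_at it had 199, 104, 196 and 144 in exosomes and 62.5, 65.9, 13.3 and 12.2 in cells, a difference of 2.24 (SE 0.59, adjusted p = 0.00777).

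The same contrast held for the other pair. Sec11c had 142, 181, 147 and 144 in exosomes and 66.2, 52.2, 12.8 and 14.6 in cells by probe set 1440378_at, a difference of 2.23 (SE 0.54, adjusted p = 0.00496). Ssr4 had 175, 145, 29.3 and 59.1 in exosomes and 36.1, 27.4, 13.5 and 13.99 in cells by probe set 1427096_s_at, with overlapping groups and a difference of 1.79 (SE 0.61, adjusted p = 0.0283). A dim Sec22c probe set, 1456091_at, named after its values were seen, was also called higher, with 197, 52.9, 105 and 182 in exosomes and 39.4, 37.2, 45.7 and 43.0 in cells and a difference of 1.45 (SE 0.48, adjusted p = 0.0241). In all, 5 of the 7 probe sets called higher stayed under the floor on all exosome arrays, and the cell means of the 7 lay between 3.16 and 41.3. The higher calls of Copz1, Sec62, Sec11c, Ssr4, Sec22c and Srp54b each turned sign under scaling to the hybridisation controls and to the poly-A controls, and that of Tmed5 did not. An untested Sec22a probe set, 1444802_at, was under the floor on every cell array (3.36, 7.75, 0.797 and 1.72) and above it on 1 exosome array, with 299, 237, 127 and 57.4.

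**Figure D4:**
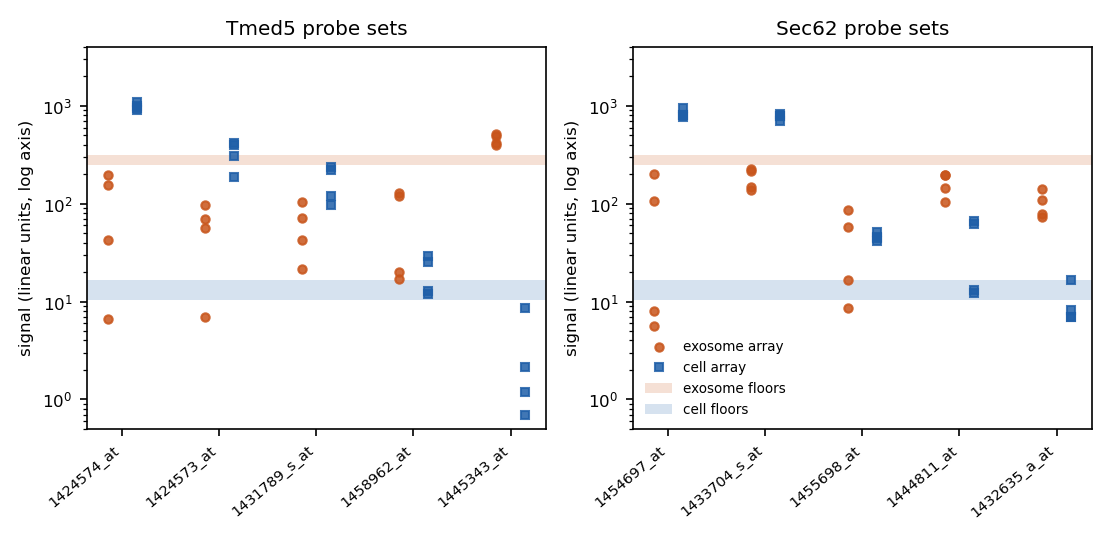
Signal on each array, on a log axis in linear array units, for the probe sets of Tmed5 (left) and Sec62 (right); circles are exosome arrays, squares cell arrays, and bands span the detection floors. Of the 5 Tmed5 probe sets, 1445343_at alone lies above the exosome floors and under the cell floors, and the dim Sec62 probe sets have exosome points between the floors.

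How many genes of the pathway were called depended on the scale, while their direction mostly did not. Another scaling moved the median difference of all tested genes to between -5.28 (hybridisation controls) and 0.72 (low signals raised to the floor), and the median of the 49 secretory genes lay under that of all genes in each, at -6.97 and -1.11 in these 2. Of the 41 genes called lower, 41 stayed called under scaling to the hybridisation controls and to the poly-A controls, 40 after subtraction of the background median, 37 under quantile normalization, 37 with low signals raised to the floor and 32 under scaling to the probe sets measurable on all 8 arrays. The sign turned for Sec63 under that last scaling and for Sec24b and Copg2 with low signals raised to the floor. Within hybridisation batch 1, 33 of the 49 genes were lower and 1 higher, and within batch 2 39 and 1.

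Other genes of the pathway were taken as a list. It held 111 genes, of which 106 were tested, 79 were lower in exosomes, 3 were higher and 24 did not pass. Of all tested genes, 46.1% were lower and 15.1% were higher. On all exosome arrays 84 of the 106 stayed under the floor, near the 77.5% of all tested genes. Among chaperones and genes of the unfolded protein response, 17 of 23 were lower and 6 did not pass. Hspa5 (BiP), the main ER chaperone, averaged 52.0 ± 45.2 in exosomes and 3775 ± 401 in cells (SD, n = 4 each), at least 13.6-fold lower (adjusted p = 1.06e-05), the highest bound of the list. Of the oligosaccharyl transferase genes, which add N-glycans, 10 of 12 were lower, and of those for disulfide formation 11 of 16, among them P4hb, at least 10.8-fold lower (adjusted p = 3.33e-06).

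Of the genes for targeting and translocation, 14 of 20 were lower, and of the COPII accessory genes and cargo receptors 14 of 17. Of the COPI accessory and retrieval genes, a class that here also holds the coat subunit Arcn1, 13 of 18 were lower. Only Arf1, Tfg and Tmx2 of the 106 were above the floor on at least 3 exosome arrays. Arf1, the GTPase that recruits COPI, had 544, 470.1, 330.2 and 284 in exosomes and 3238, 3186, 3333 and 3053 in cells, a log2 difference of -3.01 (SE 0.27, adjusted p = 9.89e-06). Tfg, which organises COPII at ER exit sites, had 373, 154, 378 and 318 in exosomes and 1912, 1893, 2177 and 2117 in cells, a difference of -2.79 (SE 0.32, adjusted p = 4.68e-05). Each was measurable on 3 of its exosome arrays, and both were lower in exosomes than in cells. None of their exosome signals exceeded a floor set at the 99th percentile. The 3 genes called higher were Arfgap3, Qsox1 and Tmem258, with cell means of 48.6, 19.4 and 37.8, and none was above the floor on more than 1 exosome array.

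By their summed signal, mast cell markers moved in the same direction as the secretory genes, and their part in the result was not tested. Of 11 such markers, 9 were above the floor on every cell array and 0 on every exosome array, with 5 above it on at least 1 exosome array. Their summed signal was 1379 to 2045 in exosomes and 42204 to 45568 in cells. Tpsab1 went the other way, with means of 62.4 in exosomes and 12.1 in cells. Mcpt4 averaged 19.6 in exosomes and 31.4 in cells. Neither was above the floor on any exosome array. Of markers of other cells, 0 of 6 T cell markers were above the floor on any array. Of the 4 B cell markers, Cd79a was above it on 1 exosome array and none on a cell array. Of the 5 macrophage markers, Mrc1 was above it on 1 exosome array and Csf1r on every cell array, and of the 3 erythroid markers none was above it on an exosome array and Epor on every cell array. The summed signals were 322 to 469 in exosomes and 10.7 to 25.1 in cells for T cell markers, 308 to 685 and 10.5 to 19.6 for B cell markers, 553 to 834 and 51.3 to 67.9 for macrophage markers, and 128 to 282 and 97.9 to 153 for erythroid markers, and in exosomes these sums are of signals nearly all under the floor.

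The cell arrays themselves differed between hybridisation batches, each of which held 2 cell and 2 exosome arrays. In a comparison added after the data were seen, 17 of 90 tested member probe sets were higher and 17 lower in batch 2 than in batch 1, while 15.4% and 23.9% of all tested probe sets were. Within Sec61a1 the probe sets split. Probe set 1416189_a_at had 2224 and 2004 in batch 2 and 1345 and 1237 in batch 1, a log2 difference of 0.71 (SE 0.09, adjusted p = 0.000282). Probe set 1416191_at had 68.9 and 32.2 in batch 2 and 274 and 345 in batch 1, a difference of -2.60 (SE 0.28, adjusted p = 0.000104), and probe sets 1416190_a_at and 1455987_at were also lower, with -2.44 and -1.52. The remaining Sec61a1 probe sets, 1448242_at and 1434986_a_at, did not pass.

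The Srp72 probe sets did not both pass. Its probe set 1428877_at had 168 and 137 in batch 2 and 422 and 499.9 in batch 1, a difference of -1.58 (SE 0.15, adjusted p = 4.75e-05), and its probe set 1428876_at had 494 and 438 in batch 2 and 412 and 379.8 in batch 1, which did not pass. The probe sets of each of these genes were measured on the same arrays, and the batch differences rest on 2 arrays of a batch. The comparison of exosomes with cells is balanced over the batches, and with the batch as a block no gene called lower lost its call and no further gene gained one.

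**Figure D5:**
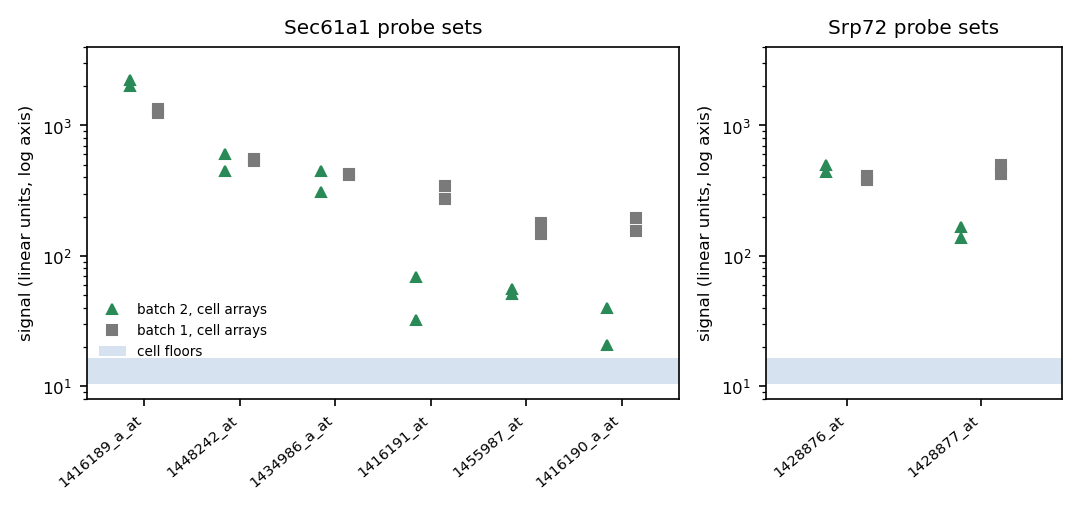
Signal of the 6 Sec61a1 probe sets (left) and the 2 Srp72 probe sets (right) on the 4 cell arrays, on a log axis in linear array units (triangles, batch 2; squares, batch 1). The dimmer Sec61a1 probe sets and 1 Srp72 probe set lie lower in batch 2, and the brightest Sec61a1 probe set lies higher there.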

How the data were processed

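Intensity values per probe set of 8 Affymetrix mouse arrays were used as deposited by the authors, on a linear scale. They are GCOS signals, per the submitters' processing notes; how probes were summarised and background removed is not stated there. The deposited intensities of each array have a 2% trimmed mean of 100. Of 45101 probe sets, 34945 carry 1 gene symbol in the platform annotation and were named, and all 53 member genes matched the RefSeq gene table.

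A probe set was tested if it exceeded the floor on 3 arrays of either group, which left 20214. The log2 of the deposited signal plus a pseudocount of 4 was modelled in R 4.3.3 by limma 3.58.1 (lmFit, then eBayes with trend), so differences of dim probe sets are understated. The number of arrays limits the precision. By the hybridisation dates in the file headers, replicates 1 and 2 of both groups form batch 1 and replicates 3 and 4 form batch 2.

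The rule for members reads gene symbols and no values, but it, the gene lists, tests and alternatives were set with earlier results of these data known. Within each role, genes named with values were those above the floor on an exosome array (up to 4), the 3 largest falls, all rises and genes with opposite probe sets. The tests were checked on simulated data, with 50 changes of each size. Of changes of 1, 2, 4 and 6 on the log2 scale, 0, 34, 86 and 96% were recovered. The simulated signals had no detection floor, so these shares may not hold for large falls in exosomes. A gene that did not pass therefore cannot be read as unchanged. Scaling, background, pseudocount, filter, floor, blocks, batches and single arrays were varied. Array weights by group and the batch comparison in cells were added after the data were seen.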

Additional observations from a re-analysis of the deposited data

Results flagged for a closer look

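Of 84 groups of 4 arrays looked at, 4 had an array that stood apart from the others by Dixon's test at its 95% level, which chance gives in about 1 of 20 groups. Sec11a read 394 on exosome replicate 1, above its floor, while the other exosome arrays read 19.9 to 70.4. Sec11c probe set 1440378_at read 181 on exosome replicate 2 and 142 to 147 on the others, all under their floors. Srp19 read 83.1 on exosome replicate 3 and 242 to 244 on the others, also under their floors. The number of member probe sets above the floor was 90 on 1 cell array and 91 on the others.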

How the results depend on the processing

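The counts of genes and probe sets lower in exosomes stayed within 1.5 times their main values under every alternative, with 32 to 49 member genes lower (41 in the main analysis) and 43 to 89 member probe sets (60). The counts higher in exosomes did not. Under scaling to the hybridisation controls or the poly-A controls, 1 member probe set, 0 member genes and 0 other secretory genes were higher, and under quantile normalization 1, 0 and 1. With low signals raised to the floor these were 34, 8 and 27, with no filter on low values 24, 6 and 6, with the background median subtracted 3 probe sets were higher, and with array weights by group, added after the data were seen, 4. With the floor at the 99th percentile 1 member probe set and 0 member genes were higher, and 0 passed that floor on all exosome arrays. The counts of 0 member genes and of 0 other secretory genes higher under these settings come from limma and were also 0 at an unadjusted p under 0.05. Leaving out single arrays gave 1 to 2 member genes higher (2 without exosome replicate 1 or without exosome replicate 4) and 1 to 2 member probe sets above the floor on all exosome arrays kept (2 without exosome replicate 4).

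Under scaling to the hybridisation and poly-A controls, differences turned for Copz1 1447834_at (-0.98 and -0.22), Sec22c 1456091_at (-2.78 and -1.92), Sec11c 1440378_at (-1.96 and -1.11), Srp54b (-1.56 and -0.70), Sec62 1444811_at (-1.95 and -1.08) and Ssr4 1427096_s_at (-2.19 and -1.51). Ssr4 1427096_s_at also turned under quantile normalization (-0.15) and background subtraction (-0.20), and Sec22c 1456091_at under the second of these (-0.16). With low signals raised to the floor, Sec24a turned to 0.67 and Tmed5 1431789_s_at to 0.80, and within batch 2 Sec24a turned to 0.31. The cause of these changes was not tested.

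Same-numbered samples did not deviate together (correlations of -0.07 to 0.01). Most exosome signals lie under the floor, so this cannot show whether same-numbered samples share a culture. With the replicate number as a block, 40 member genes and 58 member probe sets were lower and 1 and 7 higher.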
